A study of Mus musculus with 139 samples.

Results

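Outer hair cells (OHCs) were sampled along the mouse cochlea, from apex, middle and base, between postnatal days 14 and 16, and each sequencing library was made from 1 cell. They were chosen by their labels alone. Of the 139 cells in the deposited count table, 52 are labelled as outer hair cells: 21 are apical, 23 middle and 8 basal. The other 87 cells are labelled as inner hair cells (IHCs). The series asks how the molecular make-up of hair cells varies along the cochlear spiral. The labels give tissue, cell type, region and age, and no strain, genotype, treatment or animal. How many mice the OHCs came from is therefore not known, every labelled group counts as 1 sample, and values are described over cells with no test between groups.

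OHCs amplify the vibration that sound evokes in the cochlea. Their lateral wall is packed with the motor protein prestin, which shortens and lengthens the cell as the membrane voltage changes, and their hair bundle carries the mechanotransduction channels that set that voltage. Calcium that enters with each stimulus is buffered by proteins such as oncomodulin, and cholinergic nerve fibres from the brainstem end on the cell and damp its response. Mice begin to hear shortly before the ages sampled here.

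Each title ends in a number that no label explains. OHCs numbered above 100 (21 cells: 12 apical, 7 middle, 2 basal) and up to 100 (31 cells: 9, 16 and 6) were kept apart as 2 library series, called the higher-numbered and the lower-numbered series. Counts per OHC ran from 134269 to 13576942 (median 8377262) in the higher-numbered series and from 71027 to 8831447 (median 1655578) in the lower-numbered one. A median OHC had at least 1 read of 6524 genes in the higher-numbered series and of 6110 in the lower-numbered one. The series lay further apart in the genes that reached 10 CPM (counts scaled to an equal total in every cell), the level called present from here on: 2977 genes in the median higher-numbered OHC against 800 in the median lower-numbered OHC. The ranges, 800 to 6439 and 409 to 1553, overlapped. The number present in the median OHC was 2449.5 and 800 for apical cells, 5278 and 678 for middle cells, and 1555 and 1336 for basal cells, with the higher-numbered series first each time.

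The counts of a lower-numbered OHC were also held by fewer genes. The 100 most abundant genes took 75.9% of the counts of the median lower-numbered OHC and 39.8% in the higher-numbered series. Depth moved with the series. After each cell was thinned to 475168 counts, which left 20 higher-numbered and 26 lower-numbered OHCs, the median cell still had at least 1 read of 4428 genes in the higher-numbered series and of 2876 in the lower-numbered one. IHCs showed the same order, with 3791 genes present in the median higher-numbered cell and 1079.5 in the median lower-numbered cell. Because no label says what separates the series, their library preparation, animals and cells cannot be told apart.

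A few libraries stood apart. Both higher-numbered basal OHCs gave a large share of their counts to CT010467.1, a clone annotated as ribosomal RNA, with 26.1% in basal OHC 1 and 29% in basal OHC 2, and 16.9% and 14.8% to genes of the mitochondrial genome. Middle OHC 1 gave 12.9% and 11.5%. The mitochondrial share did not set middle OHC 1 apart from lower-numbered cells. Of those, 5 had more, from 12.9% in apical OHC 17 to 18.1% in middle OHC 19, the highest of all. The clone shares of those 5 were 2.06% or less. Only middle OHC 19 lay above basal OHC 1. Within the higher-numbered series the basal pair and middle OHC 1 had the highest mitochondrial shares. The medians of all OHCs of the higher-numbered series were 2.10% and 5.99%, and those of the lower-numbered series 0.461% and 3.08%. Without these 2 basal cells, Slc26a5, Ocm and Lbh were each present in 100% of the higher-numbered OHCs.

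Prestin is encoded by Slc26a5 (GRCm38, chromosome 5, 21810655 to 21865604, minus strand). Its level in the 12 higher-numbered apical OHCs ran from 11.6 to 2649 CPM with a median of 558, and in the 7 middle ones from 46.8 to 737 with a median of 252. Both higher-numbered basal OHCs were at 0. In the lower-numbered series the levels ran from 0 to 661 CPM in 9 apical cells (median 2.83), from 0 to 704 in 16 middle cells (median 0) and from 0 to 76.9 in 6 basal cells (median 0.76). Slc26a5 was thus present in every apical and middle OHC of the higher-numbered series and in 5 of the 31 lower-numbered OHCs: apical OHC 17 and 21, middle OHC 18 and 20, and basal OHC 3. As shares this is 90.5% of the higher-numbered cells (exact 95% binomial interval 69.6 to 98.8) and 16.1% of the lower-numbered ones (5.45 to 33.7). These intervals, and those below, cover counting error over cells only. Without the 2 higher-numbered basal cells the share of the higher-numbered series was 100%. Of IHCs, 29.7% of the higher-numbered and 0% of the lower-numbered cells reached the same level.

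Ocm, which encodes oncomodulin, the calcium-binding protein by which OHCs are often recognised, was the most widespread of the 5 OHC markers (chromosome 5, 144019804 to 144026670, minus strand). It was present in 20 of 21 higher-numbered OHCs (95.2%, 76.2 to 99.9) and in 22 of 31 lower-numbered ones (71%, 52 to 85.8). In the apex its level ran from 2257 to 7216 CPM in the higher-numbered series and from 30.8 to 19865 in the lower-numbered one, with medians of 4619 and 4711. The apical medians were close and the spread was wider in the lower-numbered cells. In the middle the medians were 4450 CPM (541 to 8930.1) and 36.5 CPM (0 to 6962), and 7 of 7 against 9 of 16 cells had Ocm present. The 6 lower-numbered basal OHCs ran from 1.76 to 9533 CPM with a median of 37.8, and the 2 higher-numbered ones stood at 0 and 564 CPM. Ocm was also present in 73% of higher-numbered and 18% of lower-numbered IHCs. Without the 2 higher-numbered basal cells, all other OHCs of that series had it present (100%).

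**Figure D1:**
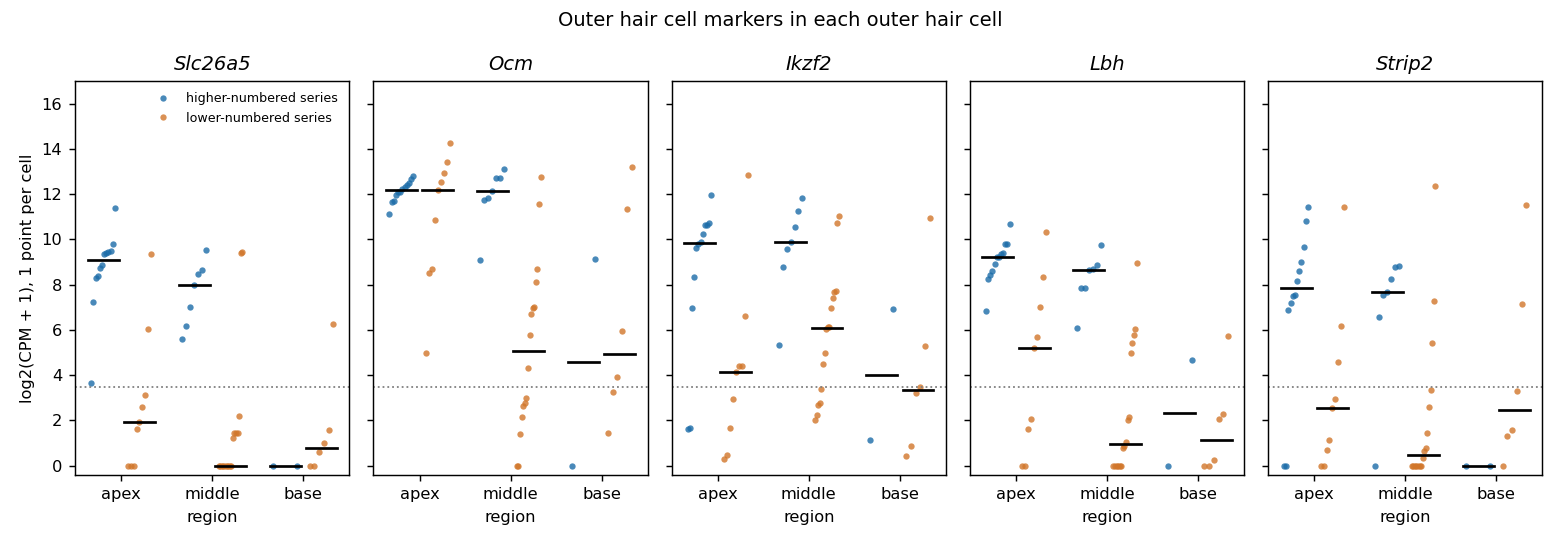
Level of the 5 OHC markers in each OHC on the log2(CPM + 1) scale, by region and library series, with 1 point per cell, a bar at the median and a dotted line at 10 CPM. Apical and middle cells of the higher-numbered series lie mostly above the dotted line for every marker, while lower-numbered cells spread from 0 to the highest levels; Ocm in the apex has medians of 4619 and 4711 CPM in the 2 series.

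The other 3 markers followed the same order. Ikzf2 encodes Helios, a zinc finger transcription factor of OHCs (chromosome 1, 69531214 to 69687245, minus strand). It was present in 18 of 21 higher-numbered OHCs (85.7%, 63.7 to 97), where its level ran from 1.21 to 4047 CPM with a median of 901. In the lower-numbered series it was present in 19 of 31 (61.3%, 42.2 to 78.2), from 0.237 to 7372 CPM with a median of 20.2. Ikzf2 shares exonic bases with Gm29114 on the opposite strand, and no label or note says whether strand was used in counting. Lbh, a transcriptional cofactor (chromosome 17, 72918305 to 72941947, plus strand), was present in 20 of 21 (95.2%; median 409 CPM, highest 1633) and in 11 of 31 OHCs (35.5%, 19.2 to 54.6; median 3.01, highest 1302). Strip2, which encodes a member of a phosphatase-kinase scaffold complex (chromosome 6, 29917012 to 29959681, plus strand), was present in 16 of 21 (76.2%, 52.8 to 91.8; median 186 CPM, highest 2755) and in 8 of 31 (25.8%, 11.9 to 44.6; median 1.52, highest 5253). For each of these 3 genes the ranges of the series overlapped, and the highest lower-numbered cells reached levels like those of the highest higher-numbered cells.

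With the regions pooled, cell-to-cell spread was far wider in the lower-numbered series. The coefficient of variation (SD over mean) of Ocm was 0.527 over 21 higher-numbered and 1.85 over 31 lower-numbered OHCs. That of Slc26a5 was 1.20 and 2.85, and for Ikzf2 it was 1.03 and 3.03. These values mix spread within regions with differences between them, and the series hold the regions in different proportions. Mean log2 levels of Ocm in apex, middle and base were 12.14, 11.91 and 4.57 in the higher-numbered series. In the lower-numbered series they were 10.94, 5.24 and 6.53. The part of region in the spread was not tested. Single cells carried much of the lower-numbered totals: 1 cell held 70.8% of the Strip2 counts, 54.9% of the Lbh counts, 47.4% of the Ikzf2 counts and 47% of the Slc26a5 counts. In the higher-numbered series no single cell held more than 27.6% of the counts of any of the 5 markers, the highest share being that of Slc26a5. At equal depth the shares stayed close to these: Slc26a5 was present in 90% and 19.2% of the thinned cells, Lbh in 100% and 38.5%, and Strip2 in 80% and 30.8%.

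Counting markers per cell gave the same picture. All 5 were present in 15 of 21 higher-numbered OHCs (71.4%), and at least 4 in 18. Of the lower-numbered OHCs, 1 had all 5 (basal OHC 3), 4 had 4, 5 had 3, 10 had 2, 9 had 1 and 2 had none. The 2 cells with none were basal OHC 8 and middle OHC 23, which had 7113 and 15134 genes with at least 1 read. Among higher-numbered OHCs the 3 lowest counts were those of basal OHC 1 (1 marker, Ikzf2), basal OHC 2 (2 markers, Ocm at 564 and Lbh at 24.2 CPM) and apical OHC 8 (3 markers). The medians were 5 and 2 markers, against 3 and 0 in higher-numbered and lower-numbered IHCs. The number of markers moved with the log of total counts among higher-numbered OHCs (Pearson 0.84, Spearman 0.73, 21 cells; Pearson 0.75 without the 2 cells farthest from the median depth). The 2 cells taken out were basal OHC 1 (134269 counts) and apical OHC 9 (858671 counts), so basal OHC 2 stayed in. The relation without both basal cells was not tested. Among the 31 lower-numbered OHCs the Pearson and Spearman values were 0.11 and 0.01.

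**Figure D2:**
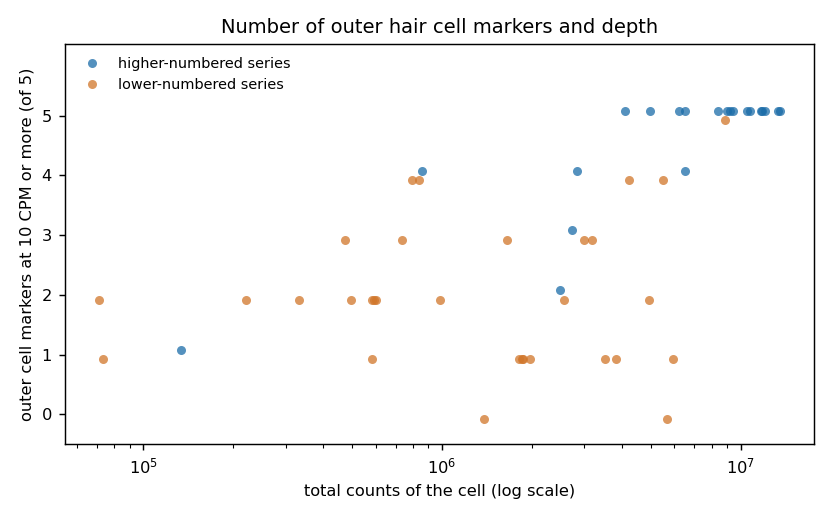
Number of the 5 OHC markers present in each OHC against the total counts of the cell on a log scale, with 1 point per cell coloured by series. Most higher-numbered cells sit at 4 or 5 markers with the 2 basal cells below. Lower-numbered cells lie between 0 and 5. The 1 with all 5 is the deepest of that series, at 8831447 counts, and the 2 with none are at 1378333 and 5677342 counts.

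The label of outer rather than inner cell was checked with summed marker levels. The summed CPM of the 5 outer markers was above that of 9 inner markers in 21 of 21 higher-numbered OHCs and in 29 of 31 lower-numbered ones. Its median was 7769 CPM (highest 12258) and 415 CPM (2.29 to 19871) in the 2 series, while the inner sum had medians of 76.2 (0 to 715) and 7.55 (0 to 3671). The inner sum was the larger in 2 lower-numbered OHCs (6.45%, 0.791 to 21.4). Middle OHC 12, a library of few genes (837 with a read), had 3671 CPM of inner markers, all of it Otof, against 205 CPM of outer markers, all of it Ikzf2. Middle OHC 16 had 213 against 61.8 CPM. In IHCs the inner sum was the larger in 35 of 37 higher-numbered and 48 of 50 lower-numbered cells. The markers thus sided with the label in 50 of 52 OHCs, although 8 lower-numbered OHCs had an outer sum under 100 CPM.

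**Figure D3:**
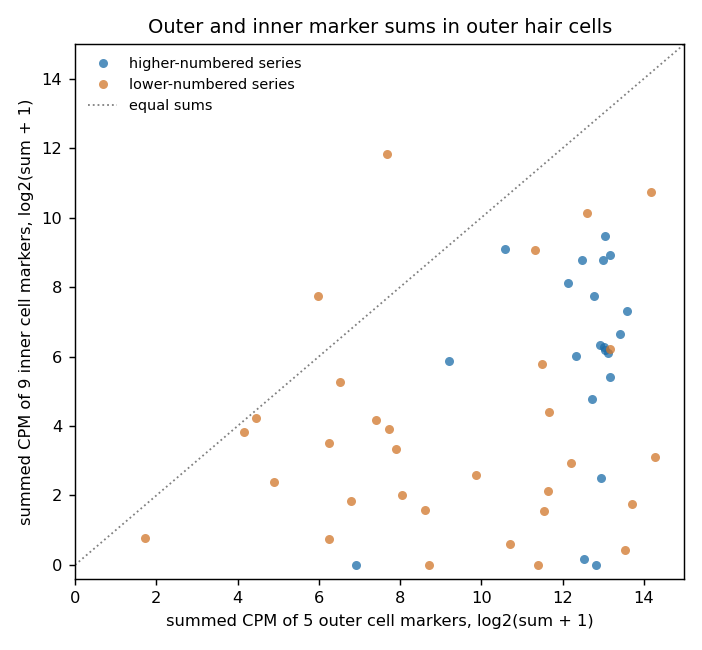
Summed CPM of the 5 outer markers (x) and the 9 inner markers (y) in each OHC, both as log2(sum + 1), with the dotted line where both are equal. All 21 higher-numbered OHCs and 29 of 31 lower-numbered OHCs lie on the outer side of the line.

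Among inner markers, Otof, whose product otoferlin triggers vesicle release at IHC synapses, was present in 10 of 21 higher-numbered and 7 of 31 lower-numbered OHCs, with medians of 7.92 and 1.52 CPM. It was present in 94.6% and 92% of IHCs. Slc17a8, which encodes the vesicular glutamate transporter VGLUT3, was present in 2 of 21 and 0 of 31 OHCs (the latter allows a share of up to 11.2%), against 89.2% and 70% of IHCs. Fgf8 and Dnajc5b were present in no OHC. For Fgf8, as for every gene at 0 of 52 cells below, the exact interval allows a share of up to 6.85%. Over both series together, Otof was present in 12 of the 21 apical, 5 of the 23 middle and 0 of the 8 basal cells. The regions hold the series in different proportions, so these counts mix region with series. In the higher-numbered series the mean log2 level of Otof was 4.34 in the apex and 3.95 in the middle. The lower-numbered means lay further apart, at 4.61 and 1.91. Basal means were 0.00 in the higher-numbered and 0.26 in the lower-numbered series.

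A second list of 11 genes known from OHCs was present to a lesser degree, with a median of 45.5% of its members per higher-numbered OHC and 18.2% per lower-numbered OHC (IHCs 27.3% and 9.09%). Its leading member was Dnm3, a dynamin of membrane scission, present in 19 of 21 and 21 of 31 OHCs at medians of 2371 and 525 CPM. Sri, which encodes the calcium-binding protein sorcin, was present in 19 and 6 cells, with medians of 396 and 0.506 CPM. Bmp3, a secreted growth factor, was present in 16 and 7 cells (IHCs 24.3% and 0%), and the water channel gene Aqp11 in 15 and 5. The genes of the efferent synapse were patchier. Chrna9 and Chrna10, the subunits of the acetylcholine receptor on which the efferent fibres act, were present in 7 and 5 of the higher-numbered OHCs and in 1 and 0 of the lower-numbered ones. Kcnn2, the calcium-activated potassium channel that works with that receptor, was present in 8 and 4 cells. In the higher-numbered series Chrna9 and Kcnn2 were held mostly by middle cells: of the 7 middle OHCs, 6 had Chrna9 present (highest 658 CPM) and 5 had Kcnn2 (median 46.8 CPM), whereas 1 and 3 of the 12 apical cells did. The lower-numbered series did not show this order: Chrna9 was present in 1 of 9 apical and 0 of 16 middle OHCs, and Kcnn2 in 2 of each. The higher-numbered middle cells were also deeper, with a median of 10532521 counts against 6352194 in the apex, and held more mesenchyme and bone transcripts (a median sum of 10244 against 1187 CPM). The part of either in this difference was not tested. Rapsn, which clusters such receptors, was present in no OHC.

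In the lateral wall list of 15 genes a median of 46.7% of members was present per higher-numbered OHC and 13.3% per lower-numbered OHC. Actb, cytoplasmic actin, was present in 51 of 52 OHCs, at medians of 6237 and 12557 CPM. The spectrin gene Sptbn1 was present in 18 and 7 cells (medians 281 and 2.19 CPM), and Ank3, an ankyrin that ties membrane proteins to spectrin, in 18 and 7 (165 and 4.23 CPM). Sptan1, the alpha spectrin, was present in 10 and 5. Sptbn5, the large beta spectrin, and Slc2a5, a sugar transporter, were present in no OHC.

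Genes shared by all hair cells were present more unevenly than Ocm. The median share of the 14 general hair cell genes per cell was 42.9% in the higher-numbered and 14.3% in the lower-numbered OHCs, beside 50% and 21.4% in IHCs. Myo6, an unconventional myosin at the base of the stereocilia, was present in 19 of 21 and 16 of 31 OHCs, at medians of 1606 and 13.2 CPM. Among higher-numbered OHCs its level ran from 985 to 6513 CPM in the apex (median 4424) and from 531 to 1764 in the middle (median 810.3), and was 0 in both basal cells. Myo7a, the tip-link myosin by which hair cells are commonly stained, was present in 9 and 4. Pou4f3, a transcription factor that hair cells need to survive, was present in 18 and 4 cells, with medians of 358 and 0 CPM.

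For mechanotransduction, Tmc1, the pore-forming subunit of the mature channel, was present in 14 of 21 and 17 of 31 OHCs at medians of 66.2 and 23.2 CPM. Its 2 shares lay closer together than those of its partners. Tmc2, its early counterpart, was present in 0 and 1 cells. The channel partners stood further apart: Lhfpl5 was present in 18 and 3 OHCs (medians 761 and 0 CPM), Tmie in 16 and 5 (195 and 0 CPM), and Cib2 in 18 and 10 (958 and 2.18 CPM). Cib2 and Tmie each share exonic bases with a gene on the opposite strand. Of the tip-link cadherins, Cdh23 was present in 14 and 2 cells and Pcdh15 in 4 and 2. Over the 12 members the median share present per cell was 50% in higher-numbered and 16.7% in lower-numbered OHCs.

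Of 26 stereocilia genes a median of 42.3% was present per higher-numbered and 15.4% per lower-numbered OHC. The most widespread were Lmo7, a cuticular plate protein, in 19 and 25 cells (medians 2448 and 264 CPM), Triobp, which bundles actin in the rootlets, in 19 and 16 (413 and 27.4 CPM), and, tied for the third place, Pls1 and Rdx. Pls1, an actin bundler, was present in 19 and 8 cells, and Rdx, which links actin to the membrane, in 18 and 9. Triobp levels ran from 215 to 1006 CPM in the 12 higher-numbered apical OHCs and from 165 to 756 CPM in the 7 middle ones, and were 0 and 0.403 CPM in the basal pair. Pdzd7, of the ankle links, was present in 1 OHC, and Myo3b in none. Strc, the stereocilin gene of the links between stereocilia and of their attachment to the tectorial membrane, was present in 8 and 3 OHCs and in 13.5% and 0% of IHCs. It was named after its values were seen, has exonic overlap with Ckmt1 on the other strand, and 11 cells are too few to describe its spread.

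Next to the outer markers, calcium handling was the best covered of the hair cell lists, with a median of 61.1% of 18 members present per higher-numbered and 27.8% per lower-numbered OHC. Of the plasma membrane calcium pump genes, Atp2b1 was present in 19 and 16 cells (375 and 10.2 CPM) and, named after its values were seen, Atp2b2, the pump of the hair bundle, in 19 and 12 (1004 and 6.02 CPM). Slc8b1 and Mcu, of the mitochondrial calcium path, were present in 3 OHCs each. Among synaptic genes, Cacna1d, the calcium channel of hair cell synapses, was present in 18 and 10 OHCs (medians 431 and 3.54 CPM), the active zone gene Erc2 in 16 and 4, and Ctbp2, whose product Ribeye builds the ribbon, in 8 and 0. Dnm3, Cacna1d and Erc2 share exonic bases with genes on the opposite strand, and Ctbp2 with Fgfr2 on its own, so some of their reads could belong to those genes.

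Transcription factor genes spread over a wide range. Rorb, a nuclear receptor, was present in 19 of 21 and 16 of 31 OHCs, with a median of 6403 CPM in the higher-numbered and 18.6 CPM in the lower-numbered series. Its levels in the 7 higher-numbered middle OHCs ran from 1998 to 29228 CPM, and in the 6 lower-numbered basal OHCs from 1.52 to 33797. Nr2f2, another nuclear receptor, was present in 19 and 26 cells (667 and 168 CPM). Atoh1, which starts hair cell fate in the embryo, was present in no OHC, and Insm1 and Bcl11b in 1 and 2. Of immediate early genes, Fos was present in no OHC but in 48.6% and 14% of IHCs. Jund was the most widespread of that list, with 14 and 12 OHCs. Sod1, the cytosolic superoxide dismutase, was present in 46 of 52 OHCs at medians of 4739 and 8279.7 CPM, and the heat shock genes Hsp90aa1 and Hsp90ab1 in 48 and 46.

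**Figure D4:**
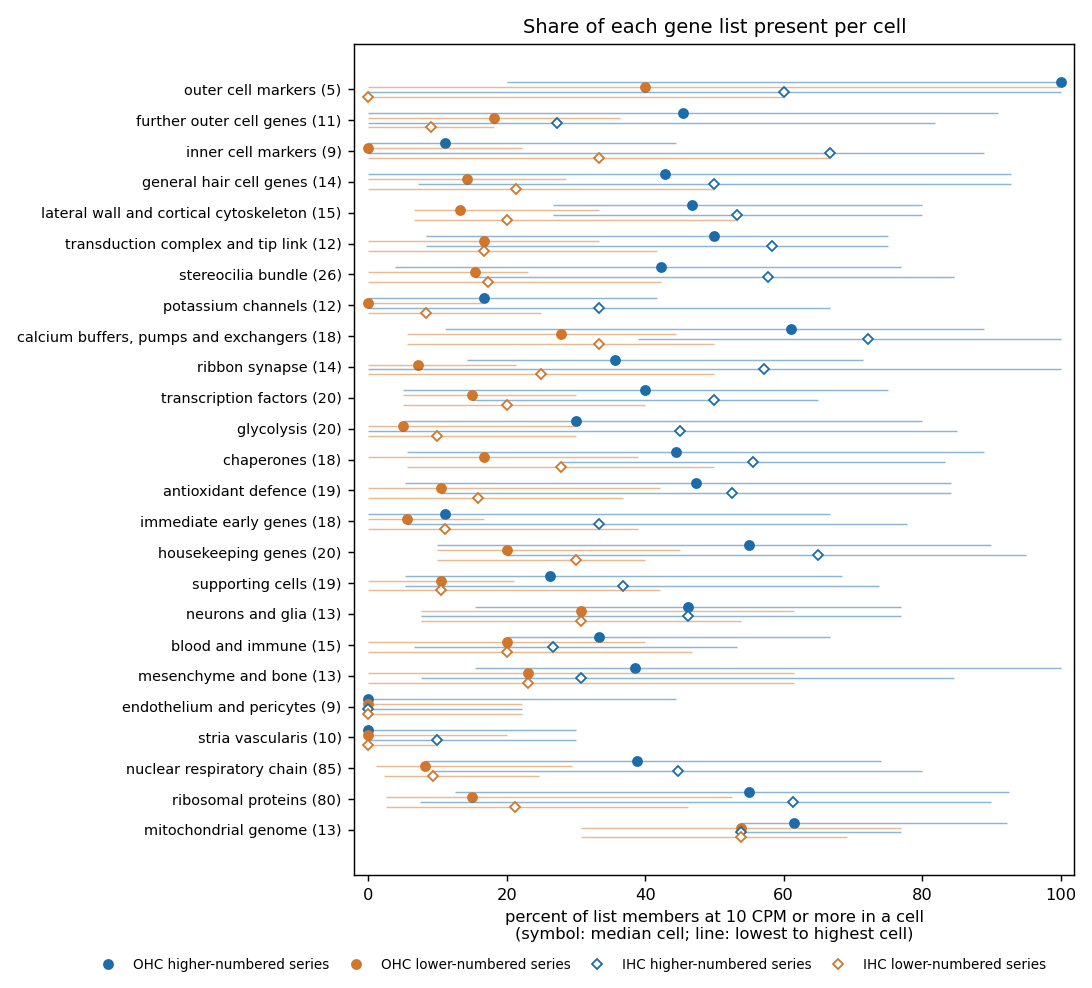
Percent of the members of each gene list that were at 10 CPM or more in a cell, as the median cell (symbol) and the lowest to highest cell (line), for OHCs (filled) and IHCs (open) of both series; list sizes are in brackets. The outer cell markers have medians of 100% and 40% in OHCs and 60% and 0% in IHCs, and in nearly every other list both cell types sit higher in the higher-numbered series.

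The genes common to all OHCs were few. Of 17055 genes present in at least 1 OHC, 5 were present in all 52 and 72 in at least 80%, while 15234 (89.3%) were present in 25% of the cells or fewer and 5595 in a single cell. In the higher-numbered series 418 genes were present in at least 80% of OHCs, and in the lower-numbered series 65. The lists shared 50 genes, which is 12% of the longer and 76.9% of the shorter, and 9 of the 50 belong to the mitochondrial genome. Malat1, a nuclear long noncoding RNA, and Lars2, a mitochondrial leucyl-tRNA synthetase, were present in all 52 OHCs. Next came Actb, Skp1a, which encodes a ubiquitin ligase subunit, the transcription factor gene Nfia and Igfbp5, a secreted binder of growth factors, with 51 each. Malat1 levels ran from 223 to 2734 CPM in the higher-numbered OHCs (median 1616) and from 16.1 to 10585 CPM in the lower-numbered ones (median 1859.7), with coefficients of variation of 0.532 and 0.965.

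Levels of different genes were compared per length, as TPM, in which counts are divided by the length of the merged exons before scaling. Over the 52 OHCs together Ocm had the highest median of the named genes at 10684 TPM, followed by Actb at 9079.9 and Dpysl2, a cytoskeletal phosphoprotein, at 5886. That order rests on the higher-numbered OHCs, where the medians were 20487 TPM for Ocm and 8048 TPM for Actb. In the lower-numbered OHCs Ocm stood at 515 TPM and Actb at 12787 TPM. Pxdc1 (5246 TPM), the syndecan gene Sdc4 (4894), Sod1 (4756), Hba-a1 (4537), the phosphatase gene Ptp4a2 (2863), the tight junction gene Cgn (2659) and the zinc transporter gene Slc39a1 (1559) completed the first 10 over both series. Dpysl2 ran from 5421 to 32502 CPM in higher-numbered apical OHCs (median 16952) and from 1506 to 15522 CPM in middle ones (median 4484). Pxdc1 showed the same order of regions, with medians of 12548 and 5979 CPM, and was at 0 and 0.403 CPM in the basal pair. In the lower-numbered series Dpysl2 ran from 0 to 53914 CPM and Pxdc1 from 0 to 35163 CPM.

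At the other end were genes that few OHCs held, each at a very high level. Virma, a subunit of the RNA methylation complex, had a mean of 1535 CPM over all OHCs but was present in 12, with a highest cell of 74675 CPM. Ankrd44 had a mean of 1227 CPM, and 1 cell held 96.5% of its counts. Efcab2 (1106 CPM), Ints7 (857), Tspan12 (760.1) and Oxct1 (755) had similar means and were present in 7, 11, 9 and 10 OHCs. The highest cell of Virma, Ankrd44, Ints7, Tspan12 and Oxct1 was a lower-numbered OHC, and that of Efcab2 a higher-numbered one.

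Apical and middle OHCs of the higher-numbered series also resembled each other more than those of the lower-numbered series, and basal ones did not. Over 6815 genes with a mean of 10 CPM or more, the median Spearman correlation between 2 cells was 0.30 for 210 higher-numbered pairs (0.09 to 0.59), 0.21 for 465 lower-numbered pairs (0.10 to 0.37) and 0.20 across series. Middle OHCs of the higher-numbered series were the most alike, with a median of 0.52 (0.42 to 0.59), and apical ones stood at 0.30 (0.24 to 0.43). Apical and middle cells of that series correlated at a median of 0.33. In the lower-numbered series the medians were 0.24 for apical, 0.20 for middle and 0.32 for basal pairs, and the single higher-numbered basal pair stood at 0.18. IHC pairs had medians of 0.43 and 0.28 in the 2 series. These pairs share cells and were not matched for depth.

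**Figure D5:**
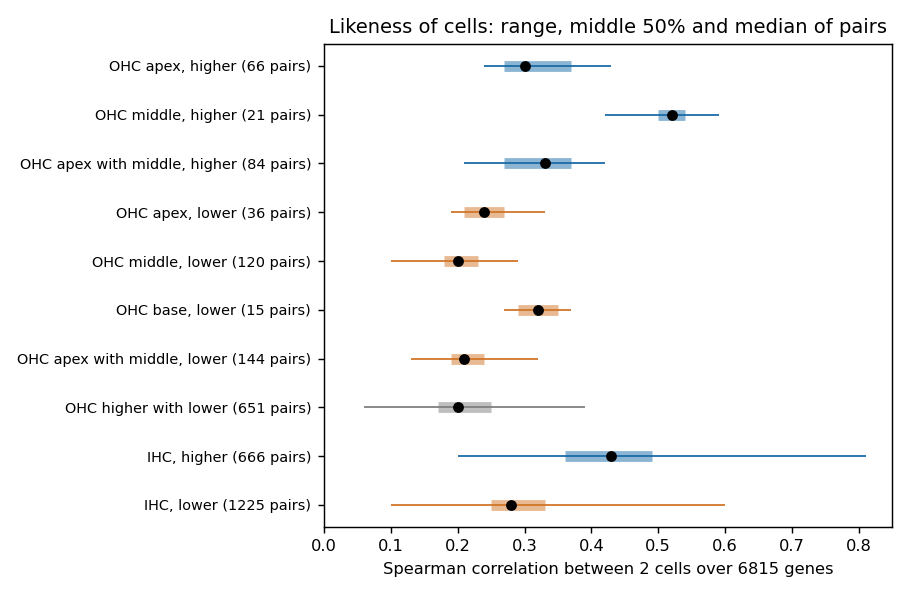
Spearman correlation between pairs of cells over 6815 genes, with the range (line), the middle 50% (bar) and the median (point) of each set of pairs. Middle higher-numbered OHC pairs lie between 0.42 and 0.59, above all 465 lower-numbered OHC pairs, which end at 0.37.

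The series were then compared gene by gene within regions, as the difference of mean log2(CPM + 1) in the apex and in the middle. A gene was counted where both passed 2-fold in the same direction, and the base, with 2 higher-numbered cells, was left out. Of 9177 genes with a mean of at least 5 CPM, 2987 (32.5%) were higher in the higher-numbered series and 76 (0.828%) in the lower-numbered one. The median gene was shifted toward the higher-numbered series by 0.69 in the apex and 2.21 in the middle, so list counts are read against it. With counts summed over the cells of each group and scaled by TMM, which gives deep cells more weight, the split was 3449 higher (37.6%) and 573 lower (6.24%), with median shifts of 2.21 and 1.82. No difference has a replicate check.

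All 5 OHC markers (5 of 5, beside 32.5% of all genes tested) passed toward the higher-numbered series by the mean of cells, with differences in apex and middle of 5.92 and 5.96 for Slc26a5, 1.19 and 6.67 for Ocm, 4.31 and 3.82 for Ikzf2, 4.56 and 5.88 for Lbh, and 3.94 and 4.68 for Strip2. By summed counts none of the 5 passed: Slc26a5 stood at 1.61 and -0.34, Ocm at -1.16 and 0.25, Ikzf2 at -1.03 and 0.93, Lbh at -0.36 and 0.42, and Strip2 at 1.27 and -3.34. The summed level of the markers was mixed in sign, while the share of cells that held them differed. In the base, where the higher-numbered series has 2 cells, the differences by the mean of cells were -1.58 for Slc26a5, -1.96 for Ocm, -0.02 for Ikzf2, 0.60 for Lbh and -4.15 for Strip2. Most of the other lists lay above the background share by the mean of cells, so by that measure this was not particular to a few functions. They included general hair cell genes (7 of 10 tested), chaperones (10 of 14), transcription factors (11 of 16) and mesenchyme and bone genes (5 of 12). Also above it were calcium handling (13 of 17 tested), nuclear respiratory chain genes (49 of 73), ribosomal protein genes (54 of 75), housekeeping genes (15 of 20) and transduction (6 of 8). By summed counts these last 5 lists had 7, 40, 32, 11 and 3, where 37.6% of all genes passed. Calcium handling, ribosomal protein and transduction genes thus lay near that share. General hair cell genes, chaperones, transcription factors and mesenchyme and bone genes had 6, 6, 9 and 2 by summed counts. Mesenchyme and bone genes thus fell below that share. Immediate early genes (1 of 11), supporting cell genes (4 of 13) and neuron and glia genes (3 of 10) were at or below the background share by the mean of cells. So were inner cell markers (1 of 4), endothelium and pericyte genes (0 of 3) and stria genes (0 of 2).

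The genes with the largest smaller difference of the 2 regions toward the higher-numbered series were Endod1, Lhfpl5, Rbm5, Osbpl1a, Ubl3, Zfp462, Rab11fip1, Nudcd3, Sri and Ndfip1. Endod1, an endonuclease domain gene, was present in 16 of 21 and 0 of 31 OHCs, with a highest level of 3.28 CPM in the lower-numbered series. Nudcd3, a dynein cochaperone gene, was present in 15 and 0. Rbm5, a splicing factor gene, was present in all 21 higher-numbered OHCs and in 6 of 31. Of these 10, Lhfpl5, Rbm5 and Sri did not pass in both regions by summed counts.

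Toward the lower-numbered series the leading gene was Wls, which encodes the carrier that brings Wnt proteins to the cell surface (chromosome 3, 159839672 to 159938664, plus strand). It was present in 26 of 31 lower-numbered and 7 of 21 higher-numbered OHCs. Its levels ran from 0.453 to 403673 CPM with a median of 571 in the lower-numbered series, and from 0 to 261 CPM with a median of 3.55 in the higher-numbered one. In middle OHC 17 Wls took 40.4% of all counts, in basal OHC 5 26.1%, in middle OHC 22 18.6%, in middle OHC 8 18% and in apical OHC 20 13%. Except for basal OHC 5 (987176 counts), these were shallow libraries, with 590386, 221542, 71027 and 495615 counts in that order. Their 100 most abundant genes took 95%, 95.1%, 96.7% and 91.2% of the counts, against 69.2% in basal OHC 5. The part of library quality in these Wls levels was not tested. The differences were -8.14 in the apex and -7.78 in the middle, and -10.07 and -11.46 by summed counts. Lars2 was present in every OHC but at medians of 308 and 3969 CPM. The other 8 of the leading genes were Tpcn2, Zfp950, Csf2ra, Xkrx, Ttll10, Nkx2-6, Kcnh1 and Arsb. Of these, Csf2ra, a cytokine receptor gene, was present in 30 of 31 lower-numbered and 7 of 21 higher-numbered OHCs (medians 99.7 and 3.62 CPM), and Kcnh1 did not pass by summed counts. In the base 9 of these 10 genes turned: there the difference was -0.52 for Wls, 0.09 for Lars2, 0.37 for Csf2ra, 1.87 for Tpcn2, 1.95 for Arsb, 2.31 for Nkx2-6, 2.41 for Kcnh1, 3.43 for Ttll10 and 3.49 for Xkrx, and Zfp950 was also above 0. The higher-numbered side there is the 2 basal cells described above.

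Genes that were present in a larger share of OHCs than of IHCs in both series were ranked by the smaller of the 2 differences. After Tmem229a (19 of 21 and 15 of 31 OHCs; 45.9% and 16% of IHCs) came Ikzf2, Lbh, the prostaglandin synthase gene Ptgds, Tsku, Ahnak, Hba-a2, Bmp3, Ocm and Cachd1. The list thus returned 3 of the 5 markers, Ikzf2, Lbh and Ocm. Tsku, which encodes a secreted regulator of Wnt and other signals, was present in 17 and 25 OHCs. In the other direction stood Slc17a8, Atp2a3, Spock1, Osbpl6, Fcrlb, Atp1b1, Map4k4, Otof, Npas2 and Selenos. Atp2a3, a calcium pump gene of the endoplasmic reticulum, was present in 6 of 21 and 3 of 31 OHCs and in 94.6% and 96% of IHCs.

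Transcripts of other cell types were read in nearly every OHC. The summed level of 15 blood and immune genes had a median of 2509.7 CPM (539 to 17713) in the higher-numbered and 3311 CPM (10.2 to 31517) in the lower-numbered OHCs, with IHC medians of 424 and 1110.1. The haemoglobin gene Hba-a1 was present in 21 of 21 and 29 of 31 OHCs at medians of 1266 and 699.9 CPM, and in 91.9% and 82% of IHCs. Hbb-bs was present in 21 and 27 OHCs. Because haemoglobin genes have near-identical copies, how their reads were divided is uncertain. Col1a1, a collagen gene of bone and connective tissue, was present in 21 and 28 OHCs (915 and 1991 CPM), and Nefm, a neurofilament gene, in 21 and 28 (1135 and 1628 CPM). The neuron and glia sum had medians of 2811 CPM (340.5 to 10600.4) and 3479.8 CPM (14.4 to 23371), and the mesenchyme and bone sum 2326 (78.6 to 16794) and 6179 (25.2 to 32206). For comparison, the summed OHC markers had medians of 7769 and 415 CPM. With regions pooled, the medians of these 3 sums thus lay above that of the markers in the lower-numbered series. This came from middle and basal cells, where the marker sum had medians of 208 and 1377 CPM. In lower-numbered apical OHCs it was 4742 CPM, above the blood, neuron and mesenchyme sums at 3428, 2029 and 1228 CPM. In the higher-numbered basal pair it was 354 CPM, below those sums at 6772, 9199.6 and 4756 CPM. In higher-numbered middle OHCs the mesenchyme and bone sum (10244 CPM) lay above the marker sum (6798 CPM).

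Other defining genes of those tissues were present in few OHCs or none. The leukocyte gene Ptprc was present in 1 OHC, the sensory neuron gene Prph in none, the endothelial genes Kdr and Cldn5 in none, and the strial gene Kcne1 in none. Of supporting cell genes, Hes5 and Lfng were present in no OHC and Sox2, named after its values were seen, in 2. The supporting cell sum, at medians of 581 (15.7 to 2060.2) and 969 CPM (2.70 to 28257), was led by Cdkn1b and Jag1, and Cdkn1b, a cell cycle inhibitor, is also known from hair cells. The endothelium and pericyte sum had medians of 5.54 CPM (0 to 224) and 4.85 CPM (0 to 489.6) in the higher-numbered and lower-numbered OHCs, and the stria sum 3.94 CPM (0 to 541) and 8.58 CPM (0 to 3263). The stria sum reached 100 CPM in 9 of the 52 OHCs, led by Cldn11, and ran from 61 to 541 CPM in the 7 higher-numbered middle cells. The part of such transcripts in the spread between OHCs was not tested.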

How the data were processed

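The authors deposited 1 table of raw read counts per gene for the 139 cells, with 55335 lines. Trimmomatic, HISAT2, featureCounts and Subread 1.4.6 with GRCm38 (mm10) are named in the submitters' processing notes, and sequencing was on an Illumina HiSeq 2500 per the labels. Strandedness, molecular identifiers and the treatment of reads mapping to several places are not stated in those notes or the labels, which leaves genes with close copies uncertain.

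Counts were divided by each cell's total to give CPM, and by merged exon lengths of GENCODE M21 for TPM. Of the gene identifiers 54587 matched with their version, and the 181 lines without a symbol held 0.00885% of counts. Present means 10 CPM or more. Series differences used a pseudocount of 1 CPM, which understates low and patchy genes. Intervals are Clopper-Pearson at 95%. Thinning drew 475168 counts per cell, the percentile 10 of OHC totals. The summed alternative used TMM of edgeR 4.0.16 in R 4.3.3. The rest used Python 3.11.15, numpy 2.4.6, pandas 2.3.3 and scipy 1.17.1. The series comparison by the mean of cells was also run on simulated counts with known changes toward the higher-numbered series. It counted 14.9% of 4-fold, 31.8% of 8-fold and 38.8% of 16-fold changes, and 3.11% of unchanged genes. It thus misses many true changes.

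The OHCs, gene lists and tests were chosen with earlier results of these data known. Named genes were list members (in lists of over 15, the 3 present in most and the 3 in fewest OHCs), the 20 most widespread, the 10 highest by TPM, the 10 highest by mean CPM in at most 25% of OHCs, and the 10 per direction with the largest series or OHC-IHC differences. Predicted, ribosomal and mitochondrial genes were not named. Of the 5 OHC markers 1 shares exonic bases with an opposite-strand gene. Some genes picked by these rules are not reported here.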

Additional observations from a re-analysis of the deposited data

Results flagged for a closer look

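Within a region and series of 4 to 10 OHCs, 13 of 36 sets of values had 1 cell far from the rest (Dixon's 95% limit). Chance passes that limit in about 1 of 20 sets of normally spread, unrelated values. These values are skewed, and the outer marker sum contains the 5 markers, so that rate is no yardstick for the 13. The 36 sets came from lower-numbered apical and basal and higher-numbered middle OHCs, and all 13 were lower-numbered. In the apex, apical OHC 12 had 7.77% of its counts in the ribosomal RNA clone (next 2.26%), apical OHC 17 had 661 CPM of Slc26a5 (next 65.2), apical OHC 15 had 7372 CPM of Ikzf2 (next 97.3), apical OHC 18 had 1302 CPM of Lbh (next 326) and apical OHC 12 had 2778 CPM of Strip2 (next 71.9). So 4 of the 5 OHC markers each had a different high cell there.

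In the base, basal OHC 3 was highest in the outer marker sum (11786 CPM, next 3004), Slc26a5 (76.9 CPM, next 2.03), Ocm (9533 CPM, next 2637), Ikzf2 (1984 CPM, next 38.5) and Lbh (52.8 CPM, next 3.90). Strip2 was highest in basal OHC 6 (2977 CPM, next 139). The inner marker sum was highest in basal OHC 7 (17.7 CPM, next 1.95), and basal OHC 5 gave 26.1% of its counts to its top gene, Wls (next 5.92%).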

How the results depend on the processing

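Of the shares, medians and gene counts recomputed, 144 stayed within their limits and 30 moved. With summed counts and TMM 2 such counts were recomputed, and single differences turned sign, such as Strip2 in the middle (4.68 to -3.34), Ocm in the apex (1.19 to -1.16), Ikzf2 in the apex (4.31 to -1.03) and the median of mitochondrial genome genes (1.17 and 2.49 to -0.72 and -1.02). Genes in at least 80% of higher-numbered OHCs (418) became 862 at 1 CPM and 222 at 50 CPM, and 1646 and 208 when 50% or 90% of cells were asked for. The lower-numbered count (65) became 172, 27, 232 and 39. A pseudocount of 10 CPM left 1472 genes higher and 39 lower, and summed counts with TMM gave 573 lower. With 5 reads the median lower-numbered OHC had 1268 genes. At 1 CPM that series' median was 4 markers, with Ocm in 93.5%, Ikzf2 in 87.1%, Lbh in 58.1%, Strip2 in 54.8% and Slc26a5 in 51.6% of cells, and Ikzf2 was in 100% of higher-numbered ones; at 50 CPM Ikzf2 was in 38.7% of lower-numbered OHCs. Lbh and Ocm reached 100% of higher-numbered OHCs when thinned, without cells under 500000 counts, without the 2 basal cells and without all basal cells, and Slc26a5 in the last 2. The last 2 settings were chosen after seeing the data. Of 400 list shares, 367 held, 26 were larger at 1 CPM, 5 smaller at 50 CPM, and 1 larger in each setting without basal cells. No paired analysis was possible because cells carry no label that ties them to an animal. Depth limits the 7 OHCs under 500000 counts most.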

Other observations

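Ribosomal protein genes and nuclear genes of the respiratory chain were present in a larger share in the base than elsewhere in the lower-numbered series. The median lower-numbered OHC had 49.4% of 80 ribosomal protein genes present in the base, against 15% in the apex and 13.1% in the middle, with summed levels of 28449.6, 6273 and 4191 CPM. Ranges per cell were 21.2% to 52.5%, 2.5% to 38.8% and 2.5% to 25%, so the base overlapped both. Nuclear respiratory chain genes, of which 85 were listed, stood at 21.2%, 7.06% and 6.47%. In the higher-numbered series the order was different: the 7 middle OHCs had 86.2% of ribosomal protein genes present, the 12 apical ones 46.9% and the 2 basal ones 18.8% and 56.2%. The base group of the lower-numbered series was also the deepest, with a median of 4120300 counts against 1655578 in the apex and 762541 in the middle, and held more transcripts of other tissues. Its median mesenchyme and bone sum was 19949.8 CPM against 1228 in the apex and 7167 in the middle, its neuron and glia sum 10923 against 2029 and 2357, and its blood and immune sum 8402 against 3428 and 2290.4. Nefm made up 76.6% of the neuron and glia sum in this base group. The higher-numbered middle OHCs had a mesenchyme and bone sum of 10244 CPM against 1187 in the apex. The part of depth or of these transcripts was not tested. Ribosomal protein genes have many pseudogenes, so their counts are uncertain.

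Of glycolysis genes a median of 30% of 20 members was present per higher-numbered and 5% per lower-numbered OHC. Pkm, a pyruvate kinase gene, was the most widespread with 15 and 10 cells, then Aldoa with 15 and 9 and Eno2 with 13 and 5. Gapdh, named after its values were seen, was present in 9 and 3 OHCs, and in 70.3% and 8% of IHCs.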
